A study of Homo sapiens with 60 samples.

Results

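Broad H3K27Ac regions were stretches of the genome that carried an H3K27Ac peak of 4 kb or more in at least 1 of 6 peak lists of PC9 cells. They were chosen by the measured width and reproducibility of these peaks. Peaks on chromosomes 1 to 22 were kept where the global irreproducible discovery rate (IDR), which scores whether a peak holds its rank in both replicates, was 0.05 or less. The 2087 kept peaks of 4 kb or more were pooled over the lists, and merging those that overlapped gave 1187 broad regions, of 21390 merged H3K27Ac regions in all. The remaining 20203 regions overlapped no broad region and are called narrower regions, although 129 of them reached 4 kb once their peaks were merged. Since the width of H3K27Ac peaks chose the regions, presence and width are given as a description with no test.

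H3K27Ac is an acetyl mark on a histone tail that is found at working promoters and enhancers. Long unbroken stretches of it are known from the start sites of strongly transcribed genes and from dense enhancer clusters, often called super-enhancers, near genes that define a cell's identity. RAD21 is the subunit that closes the ring of cohesin, the complex that extrudes chromatin loops and is held up at CTCF sites. PDS5A binds that ring and regulates how long cohesin stays on chromatin and how far loops grow. METTL7A is a methyltransferase-like protein.

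The cells were PC9, a human lung adenocarcinoma line that depends on mutant EGFR, and osimertinib is an inhibitor of that kinase. There were 3 genotypes: Rescue, which are METTL7A knockout cells made to overexpress METTL7A with a MYC and a FLAG tag; KO, the METTL7A knockout; and wild type (WT). Cells of each genotype were either treated with osimertinib for 6 to 8 weeks, at doses that began at 100 nM and were raised, or left untreated. CUT&RUN, in which a nuclease tethered to an antibody releases the bound DNA for sequencing, was done with antibodies to H3K27Ac, RAD21 and PDS5A and with IgG as the background. The sources used here do not say whether the knockout is 1 clone, or whether the 2 samples of a group came from separate cultures.

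Each of the 24 lists used joined the 2 samples of a group, so a condition had 1 list of each antibody and conditions were set side by side without a test between them. At the IDR limit and on the same chromosomes the lists held 5045 to 14177 H3K27Ac peaks, 3635 to 16340 RAD21 peaks and 901 to 13746 PDS5A peaks. IgG lists held only 6 to 310 peaks at the limit, so all their 164 to 7509 deposited peaks were used as background. The number of reads behind each list is not known, and list length differed with genotype and treatment for every antibody. All coordinates are on GRCh37, and no gene is named because no gene annotation of that build was used.

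Among untreated lists Rescue cells had by far the most broad H3K27Ac peaks, and under osimertinib Rescue and WT cells had about the same number. In KO and WT cells osimertinib lists held about 3 times as many as untreated lists. In Rescue cells there were 461 broad peaks under osimertinib and 567 untreated. KO cells had 348 under osimertinib and 108 untreated, and WT cells had 458 under osimertinib and 145 untreated. The ratio of osimertinib to untreated was 0.813 in Rescue cells, 3.22 in KO cells and 3.16 in WT cells, where the ratio over all H3K27Ac peaks of the lists was 0.916, 1.55 and 2.0. Broad peaks made up 3.55% and 4.0% of the Rescue lists, 4.15% and 1.99% of the KO lists, and 4.54% and 2.87% of the WT lists, under osimertinib and untreated in each case. Broad peaks thus took a larger share of the list under osimertinib in KO and WT cells and a smaller one in Rescue cells. They held 10.8% and 11.7% of all the H3K27Ac length in Rescue cells, 12.4% and 6.50% in KO cells, and 12.7% and 8.44% in WT cells.

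A broad region often stayed marked in a condition in which it was not broad. Under osimertinib 795 of the 1187 regions held an H3K27Ac peak at the IDR limit in Rescue cells (67.0%), against 860 untreated (72.5%). In KO cells 665 did under osimertinib (56.0%) and 558 untreated (47.0%), and in WT cells 758 under osimertinib (63.9%) and 558 untreated (47.0%). Narrower regions held a peak less often in each list: 58.9% and 65.1% in Rescue, 37.3% and 23.5% in KO, and 45.3% and 21.7% in WT cells, under osimertinib and untreated in each case. The choice of members by a peak in any list works on both shares, so nothing is read from their difference. A peak of 4 kb or more was found in 453 and 563 of them in Rescue, 344 and 106 in KO, and 457 and 143 in WT cells. In the untreated KO and WT lists most of the marked regions therefore held only a narrower peak, 452 and 415 of 558 each.

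**Figure D1:**
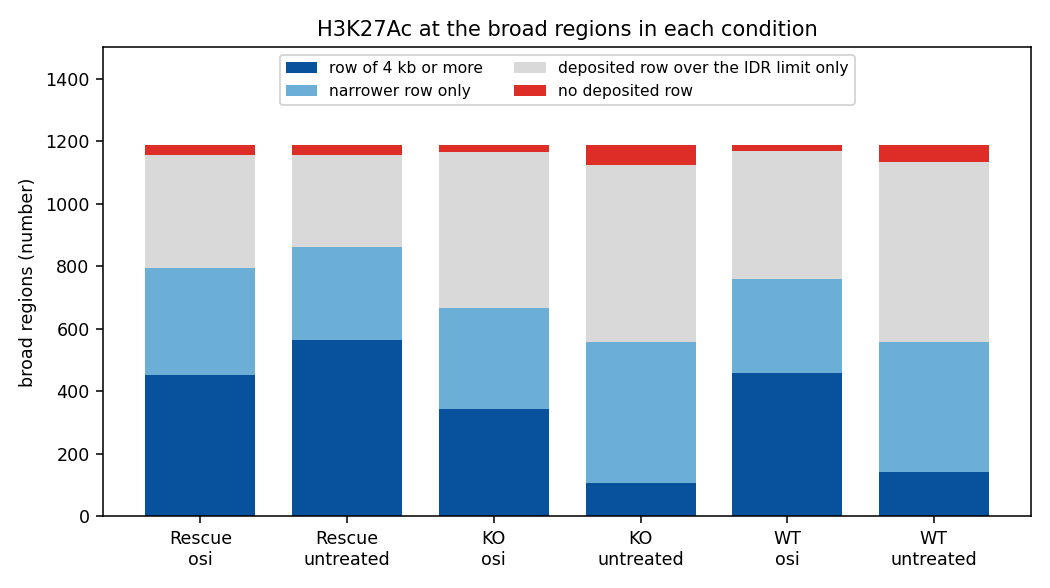
Number of the 1187 broad regions (vertical axis) by the H3K27Ac peak found in them in each condition (horizontal axis; osi, osimertinib): a peak of 4 kb or more, only a narrower peak, only a deposited peak over the IDR limit, or no deposited peak. The dark share is smallest in untreated KO and WT cells, with 106 and 143 regions, and 17 to 62 regions a condition had no deposited peak.

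With peaks over the IDR limit counted, 1.43% to 5.22% of the broad regions of a list held no H3K27Ac peak at all, against 8.34% to 30.6% of narrower regions. Regions without any deposited H3K27Ac peak numbered 30 in each Rescue list, 21 under osimertinib and 62 untreated in KO cells, and 17 under osimertinib and 54 untreated in WT cells. A deposited peak was present in all 6 lists at 1093 regions, which is 92.1% of them. With every deposited peak counted, a peak of 4 kb or more lay in 698 and 791 regions in Rescue cells, 638 and 237 in KO cells, and 665 and 321 in WT cells, under osimertinib and untreated in each case. Deposited peaks of that width met the IDR limit more often than the list as a whole did. The shares were 37.3% to 51.0% of wide peaks over the 6 lists and 21.8% to 36.6% of all peaks.

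Widths of broad peaks are cut at 4 kb by their choice, so their medians lie just above that limit in every list and cannot show whether widths differed between conditions. The median width of broad peaks was 4758 and 4841 bp in Rescue cells, 4811 and 4695 bp in KO cells, and 4819 and 4780 bp in WT cells, under osimertinib and untreated in each case. The widest 10% of broad peaks began at 6588 bp in untreated WT cells, the lowest, and at 7507 bp in KO cells under osimertinib, the highest. Each row of a list also gives the boundaries in each replicate, and by these the median width averaged 4610.5 ± 9.19 bp in Rescue cells under osimertinib (SD over replicates, n = 2), the smallest spread. In WT cells under osimertinib it averaged 4574 ± 152 bp (n = 2), the widest spread. Both replicates reached 4 kb by themselves in 65.5% to 75.5% of the broad peaks of a list, and the replicates of a broad peak differed in width by a median of 210.5 to 335 bp. Over the merged regions, widths ran to 26470 bp with a median of 4847 bp, and 10% were wider than 7682 bp. The regions covered 6571 kb in all.

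Rows nearest to the width limit show how fine that limit is. The narrowest peaks inside it were 4000, 4000 and 4001 bp wide, 2 of them from WT and 1 from Rescue cells under osimertinib. The widest peaks outside it were 1, 2 and 2 bp below it and came from the same pair of lists. Median H3K27Ac strength of broad peaks, as the percentile of the lower replicate −log10 p within the list, lay between 73.4 and 83.1 over the 6 lists. Broad peaks were thus mostly in the upper part of their list by strength.

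At the IDR limit, most broad regions were broad in a single list. A region broad in 1 list by that limit could hold a deposited peak of 4 kb or more in another. With every deposited peak counted, each list had such a peak at more regions, as at 665 against 457 in WT cells under osimertinib. The number broad in 1, 2, 3, 4, 5 and 6 lists was 703, 255, 120, 67, 27 and 15. Of the 457 regions broad in WT cells under osimertinib 245 were broad there only, which was 53.6%, against 19 of 143 in untreated WT cells (13.3%). In KO cells 79 of 344 were broad under osimertinib only (23%) and 6 of 106 untreated only (5.66%). In Rescue cells 148 of 453 were broad under osimertinib only (32.7%) and 206 of 563 untreated only (36.6%). A region broad in 1 list mostly held a narrower peak in another: 186 of the 245 in WT cells under osimertinib did. At 14 of those 245 regions no other condition had any deposited H3K27Ac peak, and the other 5 lists had 0 such regions.

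Within a genotype, regions broad under osimertinib and regions broad untreated overlapped in part. In Rescue cells 239 regions were broad under osimertinib only, 214 in both states and 349 untreated only. KO cells had 287 under osimertinib only, 57 in both and 49 untreated only, and WT cells had 393, 64 and 79. Where a region had a peak in both states, the widest peak was wider under osimertinib at 248 of 605 regions in Rescue cells (41.0%). It was wider under osimertinib at 298 of 363 regions in KO cells (82.1%) and at 252 of 373 in WT cells (67.6%). The median of the widest peak at these regions was 4067 bp under osimertinib and 4253 bp untreated in Rescue cells. It was 4037 and 2680 bp in KO cells and 4132 and 2919 bp in WT cells. The regions were chosen by width, and in KO and WT cells more of them were broad under osimertinib. Wider peaks there are thus partly given by the choice, and nothing is read from these shares and medians.

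At the IDR limit 15 regions were broad in all 6 lists, though the width of some of them varied. The region at chr20:60935760-60947379 had the widest peak of the 15 in both KO and both WT lists and the next widest in the Rescue lists. Its peak was 11620 and 11563 bp wide in Rescue cells, 11448 and 11524 bp in KO cells, and 10582 and 10739 bp in WT cells, under osimertinib and untreated in each case. All 6 widths thus lay between 10582 and 11620 bp, yet RAD21 was inside in 1 list only, with 1 peak in untreated Rescue cells. The region at chr7:5456742-5470619 varied more: its peak was 13776 bp wide in untreated Rescue cells and 5345 to 6790 bp in the other conditions. It held 2 RAD21 peaks in each Rescue list and in KO cells under osimertinib, 1 in untreated WT cells and 0 in the other 2 lists. At chr14:103588686-103600603 the peak was 5891 bp wide in WT cells under osimertinib and 9314 to 11837 bp elsewhere. At chr11:69060115-69070673 it was 10199, 10043 and 10559 bp wide in both Rescue lists and in KO cells under osimertinib, and 4360 to 6396 bp in the other 3 lists.

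The remaining 11 of these regions were merged spans of 4650 to 6119 bp. The strongest, by the lowest replicate −log10 p over its 6 broad peaks (46.1, the authors' value), was at chr19:54367133-54373185. Its widths were 5910 and 5854 bp in Rescue, 6045 and 4643 bp in KO, and 5693 and 5759 bp in WT cells, so untreated KO cells stood lowest. At chr9:91388768-91393804 the peak was 4052 to 4872 bp wide over the lists, and no RAD21, PDS5A or IgG peak lay inside in any condition. The same 0 of all 3 antibodies held at chr9:95872250-95877663, whose peak was 4318 to 5333 bp wide. Acetylation that was broad in every list was thus found both with and without a listed cohesin peak.

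**Figure D2:**
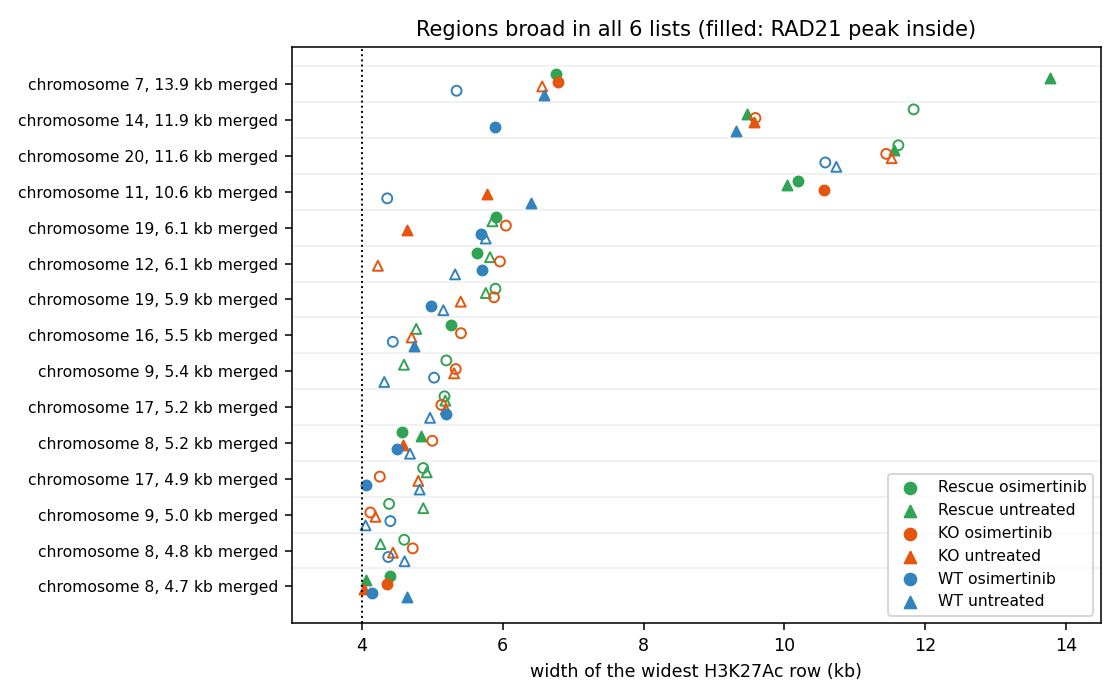
Width of the widest H3K27Ac peak in each condition (horizontal axis, kb) at the 15 regions broad in all 6 lists (vertical axis, named by chromosome and merged width); the dotted line marks 4 kb, and a filled symbol has 1 or more RAD21 peaks inside. The region on chromosome 20 stayed between 10582 and 11620 bp, whereas that on chromosome 7 reached 13776 bp in untreated Rescue cells alone.

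The widest single peaks often depended on the IDR limit. The widest, at chr20:56260465-56286934, measured 26450 bp in untreated Rescue cells, 26320 bp in KO cells under osimertinib and 14980 bp in untreated KO cells. At the limit it was 1341 bp in Rescue cells under osimertinib and absent from both WT lists, but deposited peaks of 15130 bp, 25860 bp and 15138 bp lay there in those 3 lists. The region was therefore wide in every condition among deposited peaks. At chr3:134075211-134096336 the peak was 21126 bp wide in Rescue cells under osimertinib, 9266 bp in KO cells under osimertinib and 7598 bp in untreated KO cells. The other 3 lists had deposited peaks of 11530, 20907 and 19811 bp there, in untreated Rescue cells and in WT cells under osimertinib and untreated. At chr11:118777683-118797262 widths were 8986 and 19492 bp in Rescue, 6345 bp and none in KO, and none and 1424 bp in WT cells. Deposited peaks at that region were 6150 to 19492 bp wide in all 6 lists.

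Other wide peaks belonged to 1 condition also among deposited peaks. At chr7:100757107-100772442 the peak was 15336 bp wide in WT cells under osimertinib, against 1768 and 1921 bp in Rescue, 994 and 818 bp in KO, and 1478 bp in untreated WT cells. The widest deposited peak outside osimertinib-treated WT cells was 1921 bp there. Inside it 1 RAD21, 2 PDS5A and 1 IgG peak were listed in WT cells under osimertinib and none elsewhere. At chr5:33850058-33861319 WT cells under osimertinib had a peak of 11262 bp, and no other list had a deposited H3K27Ac peak. It held 2 RAD21, 1 PDS5A and 3 IgG peaks in those cells and 0 in every other list. At chr14:69149783-69157403 the peak of the same cells was 7621 bp wide, and deposited peaks elsewhere were 469 to 1825 bp. All 3 places carried IgG peaks in the same list, and the part of background in them was not tested.

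In the other conditions the widest region marked in 1 list only, by the IDR limit, had a deposited peak of 4 kb or more elsewhere. Not every such region did. In untreated Rescue cells the widest was 8370 bp at chr20:45982529-45990898, where deposited peaks of the other lists measured 7487 to 10079 bp. It held RAD21 in every list: 1 peak in each Rescue list, 1 and 2 in KO cells, and 2 and 3 in WT cells, under osimertinib and untreated. In Rescue cells under osimertinib it was 7594 bp at chr19:4057914-4065507, with 0 RAD21, PDS5A and IgG peaks in all 6 lists and deposited H3K27Ac peaks of 2823 to 11388 bp in the other lists. In KO cells it was 6442 bp under osimertinib at chr14:105937091-105943532 and 8445 bp untreated at chr17:39806951-39815395. Deposited peaks of the other lists were 2300 to 5754 bp and 5806 to 12547 bp wide there. The next widest in KO cells under osimertinib was 6046 bp at chr17:43303311-43309356. Deposited peaks of the other lists were only 1274 to 3157 bp wide at that region. In untreated WT cells it was 6812 bp at chr18:3447393-3454204, with 4458 to 9540 bp deposited elsewhere.

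RAD21 lay inside a minority of the broad regions in each condition at the IDR limit, but inside most of them with every deposited peak counted. By that count RAD21 lay in 62.8% to 90.6% of the broad regions over the 6 lists, and PDS5A in 40.4% to 85.9%. Shares of narrower regions by that count are not given here. At the IDR limit, 399 and 357 of the 1187 regions held a RAD21 peak in Rescue cells (33.6% and 30.1%), 198 and 281 in KO cells (16.7% and 23.7%), and 545 and 176 in WT cells (45.9% and 14.8%), under osimertinib and untreated in each case. Narrower regions held one in 29.8% and 23.3% in Rescue, 13.3% and 15.5% in KO, and 36.8% and 11.2% in WT cells. Broad regions were the longer ones, with a median of 4847 bp against 1676 bp, and the shares do not allow for length. PDS5A lay in 348 and 444 broad regions in Rescue (29.3% and 37.4%), 183 and 50 in KO (15.4% and 4.21%), and 379 and 106 in WT cells (31.9% and 8.93%). For PDS5A the narrower regions gave 25% and 27.1% in Rescue, 11.6% and 1.87% in KO, and 26.1% and 4.48% in WT cells.

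IgG peaks were found in broad regions too. A deposited IgG peak lay in 103 and 97 broad regions in Rescue (8.68% and 8.17%), 257 and 17 in KO (21.7% and 1.43%), and 578 and 110 in WT cells (48.7% and 9.27%). Narrower regions had one in 3.43% and 3.47% in Rescue, 9.75% and 0.569% in KO, and 25.7% and 3.73% in WT cells. Of all deposited peaks of a list, IgG had a larger share inside broad regions than RAD21 did, 11.3% against 5.97% on average, a difference of 5.28 ± 1.03 points (SD, n = 6 conditions). It was larger in 6 of 6 conditions, with p = 0.03125 and the same after adjustment over 2 comparisons, in an exact two-sided permutation test (sign flips over conditions) that can give no smaller p. Against PDS5A the IgG share was 11.3% and 5.73%, a difference of 5.53 ± 1.08 points (SD, n = 6), also 6 of 6 and p = 0.03125 in that exact test. This comparison was added after values had been seen. The part of background in the RAD21 and PDS5A peaks of broad regions was not tested.

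Over the 6 lists, 461 broad regions (38.8%) never held a RAD21 peak at the limit and 542 (45.7%) never held PDS5A, against 54.7% and 60.8% of narrower regions. Neither protein was listed in any condition at 387 broad regions, 32.6% of them, against 50.5% of narrower regions, which were shorter. RAD21 was inside in all 6 lists at 57 broad regions (4.80%, against 5.55% of narrower ones), and PDS5A at 18 (1.52%, against 0.960%). The region with most RAD21 was chr11:69450549-69466140, with 2 and 4 peaks in Rescue, 4 and 3 in KO, and 1 and 3 in WT cells, under osimertinib and untreated in each case. Its H3K27Ac peak was 12289 and 4029 bp wide in Rescue, 3649 and 5634 bp in KO, and 5130 and 965 bp in WT cells. Those widths rest on the IDR limit, since deposited peaks there were 8217 bp wide in untreated Rescue cells, 11481 bp in KO cells under osimertinib and 5859 bp in untreated WT cells. At chr9:97679182-97687017 RAD21 had 1 or 2 peaks in every list, while H3K27Ac at the limit was 1813 bp wide in untreated WT cells and 4406 to 7820 bp elsewhere. The deposited peak of untreated WT cells was 5690 bp wide there, within the range of the other lists.

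Per length, broad peaks held fewer RAD21 and PDS5A peaks than narrower ones, in every condition. A RAD21 or PDS5A peak was counted inside where its midpoint lay. Peaks per 10 kb divide by the width that chose the broad peaks, so a lower value is partly given by the choice. The exact p-values below show only how uniform it was over conditions. Broad peaks held 0.751 and 0.646 RAD21 peaks per 10 kb in Rescue, 0.358 and 0.519 in KO, and 1.18 and 0.290 in WT cells, under osimertinib and untreated in each case. Narrower peaks held 2.4 and 1.69 in Rescue, 1.34 and 2.04 in KO, and 2.66 and 1.28 in WT cells. The mean difference, broad minus narrower, was −1.28 ± 0.30 peaks per 10 kb (SD, n = 6 conditions). All 6 conditions were lower, with p = 0.03125 in that exact permutation test over conditions, 0.046875 after Benjamini-Hochberg adjustment over 9 results. For PDS5A broad peaks averaged 0.486 and narrower ones 1.31 per 10 kb, a difference of −0.83 ± 0.50 (SD, n = 6), with the same exact p-values and 6 of 6 lower. IgG averaged 0.501 in broad and 0.712 in narrower peaks, a difference of −0.21 ± 0.24 (SD, n = 6), again lower in 6 of 6 with the same exact p-values. Counting only peaks that lay whole inside gave −0.37 for RAD21 and −0.20 for PDS5A, and fixed merged regions gave −0.65 and −0.47, with adjusted exact p of 0.0703 and 0.09375 in the first case and 0.05625 for both in the second. Against peaks of 2 to 4 kb, which are nearer in width, the differences were −0.70 for RAD21 and −0.43 for PDS5A (adjusted exact p = 0.046875 for both). With peaks on a deposited IgG peak left out, RAD21 differed by −0.67 and PDS5A by −0.44 per 10 kb, each with an adjusted exact p of 0.04375.

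Windows of equal size were used to set width aside. At the midpoint of each H3K27Ac peak a window of 1 kb was taken and any overlap with a RAD21 peak counted. RAD21 met this window in 25.6% and 22.6% of the broad peaks in Rescue, 12.9% and 19.4% in KO, and 39.5% and 10.3% in WT cells, under osimertinib and untreated in each case. Among narrower peaks it did in 39.3% and 29% in Rescue, 23% and 32.2% in KO, and 47.3% and 21.7% in WT cells. Broad peaks were lower in 6 of 6 conditions (mean 21.7% against 32.1%; difference −10.3 ± 2.8 points, SD, n = 6; exact permutation p = 0.03125, adjusted 0.046875). For PDS5A the broad peaks had 26.7% and 29.6% in Rescue, 12.6% and 1.85% in KO, and 22.9% and 6.90% in WT cells. The narrower ones had 33.1% and 33.9% in Rescue, 20.4% and 3.33% in KO, and 35.2% and 8.98% in WT cells. PDS5A was lower in 6 of 6, with a difference of −5.7 ± 4.0 points (SD, n = 6; exact permutation p = 0.03125, adjusted 0.046875).

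IgG over the same windows differed by less than the spread between conditions. Its share was 4.34% and 5.82% of broad peaks in Rescue, 16.7% and 3.70% in KO, and 36.5% and 8.28% in WT cells. Among narrower peaks it was 4.71% and 4.09% in Rescue, 17.8% and 1.26% in KO, and 34.4% and 7.92% in WT cells. The difference was 0.84 ± 1.45 points (SD, n = 6), higher in 4 of 6 conditions, with an exact permutation p of 0.21875 (adjusted 0.21875). Its direction depended on the peaks compared. Against peaks of 2 to 4 kb IgG was lower in broad peaks, 12.5% against 15.4% (−2.87 points, adjusted exact p = 0.09375). RAD21 and PDS5A then differed by −11.9 and −6.81 points (adjusted exact p = 0.046875 for both). IgG counts every deposited peak, RAD21 and PDS5A only those at the IDR limit. The windows of broad peaks lie at the middle of a long stretch, so they sample 1 place of it. When fixed merged regions took the place of each list's peaks, the RAD21 difference shrank to −2.12 points and the PDS5A difference to −1.59, with adjusted exact p of 0.121 and 0.211. With every deposited RAD21 and PDS5A peak counted, the RAD21 difference was −5.33 points and that of PDS5A −0.86, with adjusted exact p of 0.121 and 0.844. With peaks on a deposited IgG peak left out, the RAD21 difference was −3.34 points (adjusted exact p = 0.0729) and that of PDS5A −3.50 (0.04375).

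**Figure D3:**
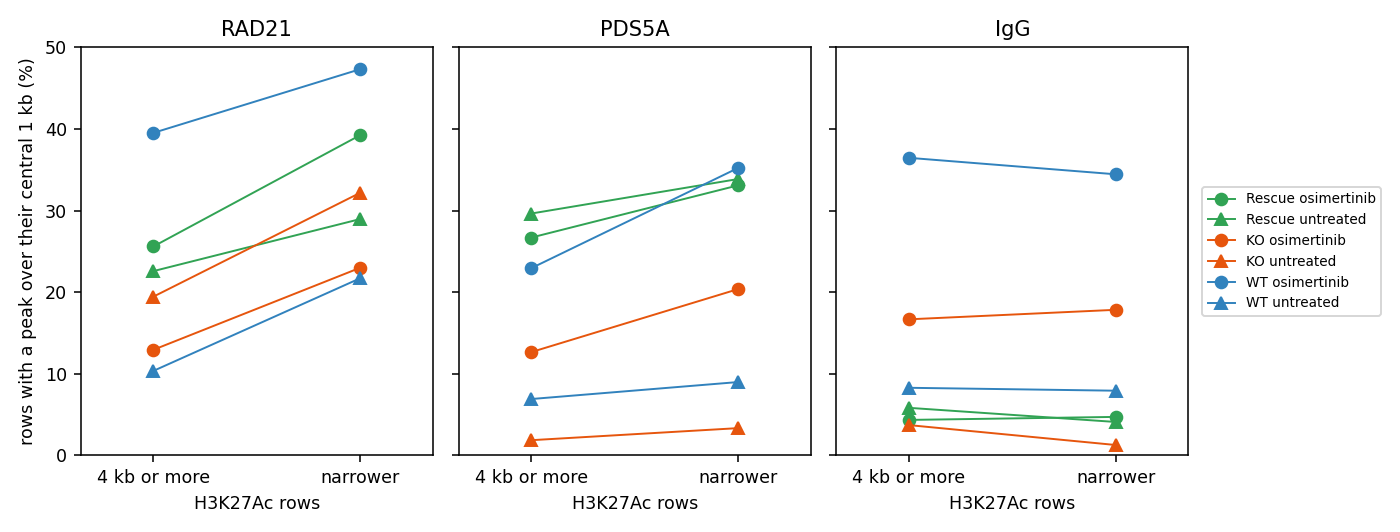
Percent of H3K27Ac peaks with a RAD21, PDS5A or IgG peak over their central 1 kb (vertical axis) for broad and narrower peaks (horizontal axis) in each condition, 1 list a point; RAD21 and PDS5A are at the IDR limit, IgG is every deposited peak. All 6 lines of RAD21 and of PDS5A lie lower at the broad end, while IgG lines run both ways.

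By width class, the share of H3K27Ac peaks with any RAD21 inside lay between 23.9% and 34.7%, while the number per length and, from 2 kb up, the share with RAD21 over the central 1 kb were lower in wider classes. Averaged over the 6 conditions, a RAD21 peak lay inside 23.9% of peaks under 1 kb and 32.8%, 34.7% and 32.4% of those of 1 to 2, 2 to 3 and 3 to 4 kb. It lay inside 29.4% of those of 4 to 6 kb and 30.1% of those of 6 kb or more. RAD21 met the central 1 kb in 34.5%, 30.3%, 23.6% and 14.9% of peaks of 2 to 3, 3 to 4, 4 to 6 and 6 kb or more. RAD21 peaks per 10 kb were 3.09 in the narrowest class and 0.471 in the widest. PDS5A lay inside 15.8% of the narrowest and 25.2% of the widest class, with 2.05 and 0.396 peaks per 10 kb. IgG lay inside 5.58% of the narrowest and 24.2% of the widest class, with 0.725 and 0.457 per 10 kb. IgG per length was thus the flattest of the 3, and its share of peaks grew with width. The widest class held 19 to 131 peaks a list, so its shares are the least certain.

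**Figure D4:**
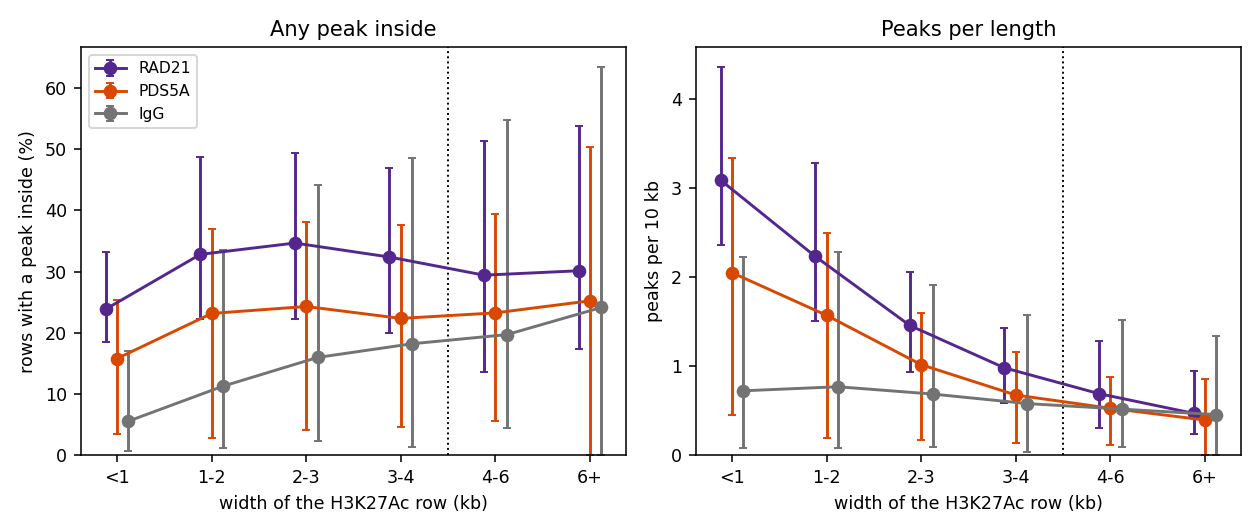
H3K27Ac peaks by width class (horizontal axis, kb), as the percent with a peak of each antibody inside (left) and the peaks inside per 10 kb (right); points are means over the 6 conditions, bars run over the lowest and highest condition, and the dotted line marks 4 kb. RAD21 per 10 kb is 3.09 in the narrowest and 0.471 in the widest class, while the percent with RAD21 inside stays between 23.9% and 34.7%.

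Inside broad peaks, RAD21 was sparse near the ends, as it was in peaks of 2 to 4 kb. Averaged over the 6 conditions, broad peaks held 0.125 RAD21 peaks per 10 kb in the first 500 bp inside each end. From 1500 to 2000 bp inside they held 0.890. IgG in broad peaks was 0.142 and 0.666 at the same places. Peaks of 2 to 4 kb held 0.163 RAD21 peaks per 10 kb in the first 500 bp. In the 6 lists 20.0% to 27.3% of the RAD21 peaks inside a broad peak lay in its end parts, when each peak was cut into 5 equal parts. In peaks of 2 to 4 kb the end parts held 3.30% to 8.94%, and the middle part 52.9% to 61.8% against 28.5% to 36.4% in broad peaks. The parts are shorter in narrower peaks, so a sparse stretch of the same length fills more of their end parts. Nothing is read from this contrast. PDS5A in broad peaks had 24.6% to 27.6% in the end parts in the 4 lists with 70 or more peaks inside. IgG had 18% to 31.2% there in the 5 lists with 32 or more, so the background had similar shares. In peaks of 2 to 4 kb IgG had 7.64% to 16% in the end parts, so its share was lower there too. Wide RAD21 peaks met broad regions more often than RAD21 peaks in general. Of RAD21 peaks of 4 kb or more, 54.5% to 74.2% overlapped a broad region over the 6 lists, against 3.97% to 5.87% of all RAD21 peaks. These wide RAD21 peaks numbered 23 to 88 a list. Wide PDS5A peaks, 2 to 76 a list, did so in 50% to 100%, against 3.40% to 6.47% of all PDS5A peaks. A longer peak overlaps a region more easily, and these shares do not allow for length.

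PDS5A peaks inside broad peaks coincided with RAD21 less often than those inside narrower peaks. In Rescue cells 63.3% under osimertinib and 47.0% untreated of the PDS5A peaks in broad peaks overlapped a RAD21 peak, against 82.2% and 65.6% in narrower peaks. KO cells had 50% under osimertinib, against 70.7% in narrower peaks, and untreated 4 of 5 peaks stood on RAD21 (80.0%), against 94.4%. WT cells had 75.4% and 46.7%, against 85.4% and 75%. The difference was −18.5 ± 6.2 points (60.4% against 78.9%; SD, n = 6), lower in 6 of 6, with an exact permutation p of 0.03125, adjusted 0.046875. With fixed merged regions it was −13.1 points (adjusted exact p = 0.05625). At a width of 3 kb it was −10.98 points, and with every deposited RAD21 and PDS5A peak −4.82 (86.2% in broad against 91.0% in narrower peaks), each with an adjusted exact p of 0.046875. It rests on 5 to 268 PDS5A peaks inside broad peaks a list, with 5 in untreated KO and 15 in untreated WT cells.

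The strength of the cohesin peaks inside did not pass the test at the limits used, and its call and direction changed with them. RAD21 peaks inside broad peaks had a median strength percentile, within their own list, of 52.4 and 54.1 in Rescue, 50.9 and 62.5 in KO, and 43.8 and 50.1 in WT cells, under osimertinib and untreated. Inside narrower peaks it was 53.9 to 58.4 over the lists. The difference was −3.47 ± 4.68 percentile points (SD, n = 6; 5 of 6 lower; exact permutation p = 0.125, adjusted 0.141). For PDS5A it was −8.72 ± 12.4 (SD, n = 6; 5 of 6 lower; exact permutation p = 0.0625, adjusted 0.0804), and untreated WT cells, with 15 peaks inside, gave 20.0 in broad against 53.6 in narrower peaks. Without that condition the mean PDS5A difference was −3.75. With every deposited peak both passed as lower (RAD21 −19.5, PDS5A −15.1; adjusted exact p = 0.046875), as they did at a width of 5 kb and by the boundaries of 1 replicate. Both turned positive at an IDR of 0.01 (3.90 and 1.70) and at a width of 3 kb (1.29 and 1.69), and RAD21 also with the whole peak inside and with fixed merged regions.

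With the 1187 regions held fixed, Rescue cells had 454 RAD21 peaks inside them under osimertinib and 398 untreated. KO cells had 214 under osimertinib and 308 untreated, and WT cells 646 and 186. As a share of the list, broad regions held 4.18% of the RAD21 peaks of Rescue cells under osimertinib (Wilson 95% interval 3.82 to 4.57) and 4.43% untreated (4.02 to 4.87). They held 4.98% (4.37 to 5.68) and 5.83% (5.23 to 6.49) in KO cells and 3.95% (3.67 to 4.26) and 5.12% (4.45 to 5.88) in WT cells. The intervals cover counting error only. The share was lower under osimertinib in all 3 genotypes, with a mean difference of −0.75 ± 0.47 points (4.37% against 5.12%; SD, n = 3). An exact permutation by sign flips gave a two-sided p of 0.25, adjusted 0.25, the smallest that 3 genotypes allow. With every deposited peak counted, the mean was −0.78 points, but the Rescue share was 5.57% under osimertinib and 5.55% untreated, so 2 of 3 genotypes were lower.

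PDS5A peaks inside the broad regions numbered 377 under osimertinib and 506 untreated in Rescue cells. There were 196 and 51 in KO cells and 422 and 111 in WT cells. The shares of the list were 3.35% (3.04 to 3.70) and 3.68% (3.38 to 4.01) in Rescue, 4.87% (4.25 to 5.58) and 5.66% (4.33 to 7.37) in KO, and 3.42% (3.12 to 3.76) and 6.41% (5.35 to 7.67) in WT cells. The mean difference was −1.37 ± 1.42 points (3.88% against 5.25%; SD, n = 3), lower in 3 of 3, with an exact permutation p of 0.25, adjusted 0.25. With every deposited peak it was −0.64, and the Rescue share was then higher, 5.03% under osimertinib and 4.71% untreated. At an IDR of 0.01 it was −0.45, and only WT cells were lower. In WT cells the number of PDS5A peaks in broad regions was 3.8 times as high under osimertinib as untreated, while the list was 7.12 times as long. For RAD21 in WT cells these ratios were 3.47 and 4.50.

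**Figure D5:**
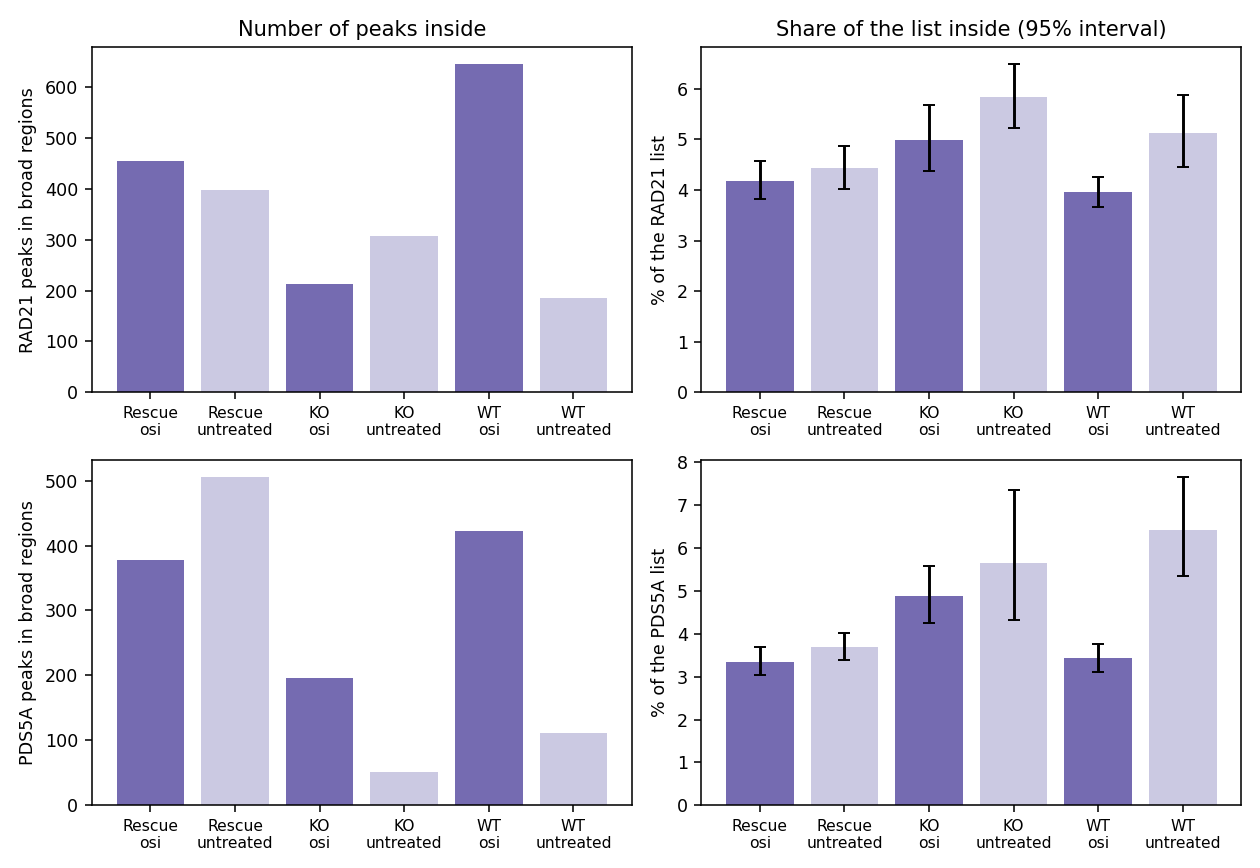
RAD21 (top) and PDS5A (bottom) peaks inside the 1187 broad regions as a number (left) and as a percent of the list (right, bars with Wilson 95% intervals, counting error only) in each condition (osi, osimertinib). WT cells under osimertinib have the most RAD21 peaks, 646, but the lowest share of the list, 3.95%.

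Between genotypes the counts again followed the length of the lists. Under osimertinib KO cells had 214 RAD21 peaks in broad regions against 646 in WT cells, a ratio of 0.331 where the whole list gave 0.263. Untreated, KO cells had 308 against 186 in WT cells, a ratio of 1.66 with 1.45 for the list. Rescue cells had 2.12 times the RAD21 peaks of KO cells under osimertinib and 1.29 times untreated, where the lists gave 2.53 and 1.70. With every deposited peak counted, broad regions held 1429 and 1338 RAD21 peaks in Rescue, 1135 and 1229 in KO, and 1749 and 1053 in WT cells. The order of the 6 conditions by their RAD21 count was the same as at the limit.

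Region by region, WT cells had the most broad regions with RAD21 under osimertinib only and the fewest with it untreated only. The RAD21 list of WT cells was 4.50 times as long under osimertinib as untreated. In Rescue cells 155 broad regions (13.1%) had RAD21 under osimertinib only and 113 (9.52%) untreated only, where narrower regions gave 10.4% and 3.92%. In KO cells 49 had it under osimertinib only (4.13%) and 132 untreated only (11.1%), with 3.87% and 6.09% of narrower regions. In WT cells 422 had it under osimertinib only (35.6%) and 53 untreated only (4.47%), with 27.1% and 1.48% of narrower regions. PDS5A was listed under osimertinib only at 101 regions in Rescue cells (8.51%) and untreated only at 197 (16.6%), with 6.16% and 8.3% of narrower regions. In KO cells these were 144 (12.1%) and 11 (0.927%), with 10% and 0.287% of narrower regions. In WT cells they were 298 (25.1%) and 25 (2.11%), with 22.4% and 0.733% of narrower regions. KO cells were the genotype with more regions of RAD21 untreated only than under osimertinib only, and Rescue cells that for PDS5A. The shares of broad regions lay above the background in each pair, but the regions were also the longer ones.

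RAD21 listed under osimertinib only was found at broad regions of each width history. Of the WT regions broad under osimertinib only, 42.0% of 393 had RAD21 under osimertinib only. The share was 53.1% of the 64 regions broad in both states, 32.9% of the 79 broad untreated only and 30.3% of the 651 broad in neither. IgG was listed under osimertinib only at 47.1%, 57.8%, 43.0% and 34.6% of these sets. In KO cells the RAD21 shares of the 4 sets were 4.53%, 7.02%, 6.12% and 3.65%. In Rescue cells they were 15.1%, 14.0%, 14.3% and 10.1%. For IgG they were 24.0%, 50.9%, 42.9% and 15.9% in KO cells and 4.18%, 8.41%, 5.73% and 4.94% in Rescue cells. In each genotype the regions broad in neither state had the lowest RAD21 share. In WT and KO cells IgG followed the same order as RAD21, and in Rescue cells it did not.

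A few regions, picked for the largest differences in WT under osimertinib or of KO against WT, show how these counts arise. At chr1:109814770-109821191 RAD21 had 3 peaks in WT cells under osimertinib, 1 in Rescue cells under osimertinib and 0 in the other 4 lists. PDS5A had 2 peaks in WT cells and 1 in Rescue cells under osimertinib and 0 elsewhere. The H3K27Ac peak there was 4046 and 6030 bp wide in Rescue and 4044 and 3019 bp in KO cells. It was 4661 bp wide in WT cells under osimertinib and absent untreated, where the deposited peak was 3842 bp. Acetylation was thus listed without either protein in both KO lists and in untreated Rescue cells. IgG had 1 peak there in WT and 1 in KO cells under osimertinib. At chr12:52536722-52549540 the H3K27Ac peak was 10180 to 12545 bp wide in 5 lists and missing at the limit from untreated KO cells, where the deposited peak was 7940 bp and RAD21 and PDS5A were at 0 as well. PDS5A there had 1 and 2 peaks in Rescue cells, 2 in KO cells under osimertinib, and 0 and 2 in WT cells, so WT cells had it untreated only.

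Broad regions lay in groups at some places. Joining regions up to 12.5 kb apart left 1039 spans, of which 116 held 2 or more regions and 264 regions in all. The largest group had 7 regions within 78441 bp at chr2:235859905-235938345. At the IDR limit, WT cells under osimertinib had a peak of 4 kb or more at 5 of the 7. KO cells under osimertinib had one at 2 and Rescue cells under osimertinib at 1. Untreated, there were 2 in Rescue and 0 in KO cells, and 3 in WT cells. These counts rest on the limit. At chr2:235932486-235938345 peaks over the limit were 5645 and 5707 bp wide in Rescue cells and 10889 bp in KO cells under osimertinib. At chr2:235925896-235932171 deposited peaks outside WT cells under osimertinib were only 539 to 2928 bp wide. RAD21 was scarce in the group: 5 peaks over all 7 regions and 6 lists, and PDS5A had 2. At chr7:55599849-55635769 a group of 4 regions held 0 RAD21 and 0 PDS5A peaks in all 6 lists. At the IDR limit H3K27Ac there reached 4 kb at 3 regions in each Rescue list and at 2 in KO cells under osimertinib. It did so at 0 in untreated KO cells and in both WT lists. A deposited peak of 4322 bp lay at chr7:55618598-55625896 in untreated WT cells.

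Another group, 4 regions at chr3:134026967-134096336, carried cohesin. Its regions held 4 RAD21 peaks in each Rescue list, 1 and 2 in KO cells, and 7 and 2 in WT cells, under osimertinib and untreated in each case. At chr3:134041923-134056730 within it the H3K27Ac peak was 14737 bp wide in WT cells under osimertinib with 3 RAD21 peaks inside. In the other lists it was 918 to 6051 bp wide at the limit, and 3922 to 6051 bp among deposited peaks, with 0 or 1 RAD21 peak. IgG also had 3 peaks inside in WT cells under osimertinib and 0 elsewhere.

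Broad regions were unevenly spread over chromosomes. For every 100 H3K27Ac regions there were 8.58 broad ones on chromosome 14, 7.92 on chromosome 17 and 7.91 on chromosome 11. Chromosomes 13 and 18 had 1.57 and 1.51, with 6 and 4 broad regions in all. Chromosome 1 had the most, 129, at 5.70 per 100. On chromosome 8 the regions broad under osimertinib were 19 (Rescue), 20 (KO) and 7 (WT), against 25, 9 and 8 untreated.

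In every condition, regions broad in 4 or more lists held RAD21 and PDS5A more often than all broad regions did. In WT cells under osimertinib RAD21 lay in 45.9% of all broad regions, 47.9% of the 484 broad in 2 or more lists, 57.8% of the 109 broad in 4 or more and 53.3% of the 15 broad in all 6. In untreated KO cells the shares were 23.7%, 26.4%, 30.3% and 33.3%. For PDS5A in untreated Rescue cells they were 37.4%, 45.9%, 54.1% and 53.3%. The sets are nested and the shares do not allow for length, so they are a description.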

How the data were processed

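Reads were made by CUT&RUN and handled on GRCh37 with MACS2 2.2.7.1, Bowtie2 2.4.2, deepTools 3.5.1, SAMtools 1.16, Trimmomatic, bedtools 2.30 and FastQC, in no stated order, per the submitters' processing notes. What threshold and control MACS2 used, and the IDR version, is not given in the sources used here. A deposited peak list gave, as the authors' values, the −log10 p of a peak in each of 2 replicates, at least 3, and the −log10 of its global IDR. A joined peak spans both replicates. The depth of the libraries is unknown, since the lists hold no read counts. The 12 H2A samples were not used here, and 48 samples stood behind the 24 lists.

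Regions, peaks inside them (by midpoint) and windows were computed in Python 3.11.15 with numpy 2.4.6, pandas 2.3.3 and scipy 1.17.1, drawn with matplotlib 3.10.9, and the code was tested on simulated data. Broad and narrower peaks were compared by two-sided exact sign-flip permutation tests over 6 conditions, which share a cell line and many regions, so p measures only how uniform a difference is over conditions. Shares have Wilson 95% intervals. Alternatives changed the IDR limit, the width limits, how a peak is counted inside, the window, the boundaries and the conditions used. The regions, lists and tests were chosen with earlier results of these data known. Regions named by position were those with the widest peaks, the strongest broad in all 6 lists, the widest marked in 1 list only, those with most RAD21 or PDS5A, those with the largest differences in WT under osimertinib or of KO against WT, those next to the 4 kb limit, and members of the 3 largest groups, the last added after values were seen. The gene and cell marker lists planned were not computed, nor were sequences read, since no GRCh37 genome or annotation was used.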

Additional observations from a re-analysis of the deposited data

Results flagged for a closer look

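Each comparison below rests on 1 list a condition, and none of the differences was tested. The log2 ratio of RAD21 peaks inside broad regions, osimertinib over untreated, was 0.19 in Rescue cells, −0.53 in KO cells and 1.80 in WT cells. KO cells thus went the other way, with a difference of 0.72 for Rescue minus KO and −2.32 for KO minus WT. The log2 ratio of PDS5A peaks inside was −0.42 in Rescue cells, 1.94 in KO cells and 1.93 in WT cells, which gave −2.37 for Rescue minus KO and −2.35 for Rescue minus WT. Here Rescue cells stood alone. The log2 ratio of the number of broad H3K27Ac peaks was −0.30 in Rescue cells, 1.69 in KO cells and 1.66 in WT cells, with differences of −1.99 for Rescue minus KO and −1.96 for Rescue minus WT. The lists as a whole had the same signs in each genotype: log2 ratios of 0.27, −0.30 and 2.17 for RAD21 and of −0.29, 2.16 and 2.83 for PDS5A in Rescue, KO and WT cells.

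Outside the chromosomes analysed, 23 H3K27Ac peaks of 4 kb or more at the IDR limit lay on chromosome X over the 6 lists, with 1 to 6 a list. No IgG peak of that width was listed on chromosome X. At the IDR limit the one RAD21 and the one PDS5A peak of that width there both came from WT cells under osimertinib.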

How the results depend on the processing

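No paired analysis was possible because each list joins both replicates of a group into 1 peak. All values are broad minus narrower, means over 6 conditions, with adjusted exact permutation p only where named; the cause of a change was not tested. The number of broad regions was 1187, 865 at a global IDR of 0.01, 1039 after joining regions up to 12.5 kb apart, 2193 with every deposited H3K27Ac peak, 2941 and 527 at widths of 3 and 5 kb, 558 without peaks on a deposited IgG peak, and 983 to 1021 by the boundaries of 1 replicate. RAD21, PDS5A and IgG per 10 kb kept their sign throughout, with −0.70, −0.43 and −0.16 against peaks of 2 to 4 kb. They missed the threshold with the whole peak inside (−0.37, −0.20, −0.13), with fixed merged regions (−0.65, −0.47, −0.068) and by covered length (−11.9, −7.49, −0.85%), the last chosen after seeing the data. With fixed regions all 3 were still lower in 6 of 6 conditions, as were RAD21 and PDS5A by covered length, and the adjusted p was 0.05625 because fewer of the 9 results reached the smallest p. RAD21 over the central 1 kb missed it with every deposited peak (−5.33), without peaks on IgG (−3.34) and with fixed regions (−2.12). PDS5A did so with every deposited peak (−0.86), at 3 kb (−2.96), with fixed regions (−1.59) and with 2 kb windows (−3.12). IgG over the central 1 kb turned negative at an IDR of 0.01 (−1.59), at 5 kb (−0.92), against peaks of 2 to 4 kb (−2.87), with windows of 0.5 kb (−0.92) and by the boundaries of 1 replicate (−0.53 and −0.74), and passed at 3 kb (2.84) and with 2 kb windows (3.31). RAD21 strength turned positive at an IDR of 0.01 (3.90), at 3 kb (1.29), with the whole peak inside (2.53) and with fixed regions (0.92), and passed as lower with every deposited peak (−19.5), at 5 kb (−9.66) and by 1 replicate (−4.55 and −4.36). PDS5A strength turned positive at an IDR of 0.01 (1.70) and at 3 kb (1.69), and passed as lower with every deposited peak (−15.1), at 5 kb (−13.5) and by 1 replicate (−9.99 and −12.0). PDS5A on RAD21 was −4.82 with every deposited peak and −10.98 at 3 kb, and missed it with the whole peak inside (−18.1) and with fixed regions (−13.1). Without 1 condition the smallest p was 0.0625, so no result could pass. Over these and the boundaries of 1 replicate the ranges were −1.47 to −1.21, −0.97 to −0.73 and −0.28 to −0.14 per 10 kb for RAD21, PDS5A and IgG. They were −11.8 to −9.68 and −6.81 to −4.39 points in the central 1 kb for RAD21 and PDS5A. Without 1 condition they were 0.51 to 1.24 points for IgG there, −4.98 to −2.05 and −10.7 to −3.75 for RAD21 and PDS5A strength, and −20.2 to −16.5 for PDS5A on RAD21. The mean share of the list inside broad regions stayed lower under osimertinib in all 9 alternatives (RAD21 −1.60 to −0.18, PDS5A −1.46 to −0.36 points), but all 3 genotypes were lower in 8 of 9 for RAD21 and 6 of 9 for PDS5A. The exceptions were every deposited peak for both and, for PDS5A, an IDR of 0.01 and a width of 3 kb. Small numbers limit PDS5A in untreated KO and WT cells, with 5 and 15 peaks inside broad peaks.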
